A study of Homo sapiens with 8 samples.

Results

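The genes described here are COL4A1, COL4A2, COL7A1, COL17A1, LAMA3, LAMB3, LAMB1, LAMC1 and NID1, which encode collagens, laminin chains and a linker protein of the basement membrane. They were taken by name: every row of the expression table whose RefSeq transcript maps to one of these symbols was used, which gave 14 transcripts of 48175 and 9 genes of 25166. LAMA3 had 4 transcripts, LAMB3 had 3 and each of the other genes had 1. RNA was sequenced from HMLE, an established line of immortalized epithelial cells from the human breast. All cells had been transduced with a lentivirus and selected with puromycin at 0.5 µg/mL, so the controls carry a vector too. The shRNA was either scrambled or directed against SOX4, which encodes a transcription factor of the SOX family, and cells were studied without TGF-β or after 16 h of it. Each of the 4 combinations had 2 libraries. A single shRNA sequence was used against SOX4, so the loss of SOX4 and any other effect of that shRNA cannot be told apart. Whether the libraries of a group are separate cultures is not stated in the labels, and p-values therefore measure the spread between these libraries, which may be technical.

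A basement membrane is the thin sheet of matrix on which an epithelium rests. Type IV collagen, built here from the α1 and α2 chains of COL4A1 and COL4A2, forms one network in it, laminin trimers of an α, a β and a γ chain form another, and nidogen links the networks. In breast epithelium, laminin-332, which holds the chains of LAMA3 and LAMB3, lies under basal cells and binds integrins at hemidesmosomes, where the transmembrane collagen of COL17A1 is anchored, and type VII collagen (COL7A1) forms the anchoring fibrils below. TGF-β is a secreted factor known to raise the transcription of many matrix genes through SMAD proteins and to favour the epithelial-mesenchymal transition, a programme in which SOX4 is a known regulator. The comparisons ask how far these genes responded to TGF-β and to the SOX4 shRNA.

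Values are FPKM, which scales reads by transcript length and library size, so levels can be compared between genes. In 34.1% of the deposited values the decimal mark had been lost, which leaves up to 3 possible readings that differ by factors of 10. The marks were restored from the rule that FPKM must give whole numbers of reads. This worked for the 7 members with 1 transcript, whose readings held posterior probabilities of 0.99988 (COL7A1) or more, and they were tested among 5061 such genes. COL7A1 gave whole reads in 7 of the 8 libraries, and the other members with 1 transcript in all 8. LAMA3 and LAMB3 do not give whole reads because their reads are shared between transcripts. For LAMA3 the short transcript NM_000227 was taken from a wider fit of 12012 genes, and LAMB3 was not tested because its readings remained in doubt. Tests used limma on log2(FPKM + 1) with Benjamini-Hochberg adjustment over all genes fitted, and "rose" and "fell" mean an adjusted p under 0.05. Fold changes are on this log2 scale, given with the standard error, and understate the change of low genes.

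The 5061 genes together held 4468430 to 5971214 reads in a library, and a gene had a median of 374 to 505 reads. SOX4 was at 8.74 and 8.04 FPKM in untreated and 18.7 and 17.6 FPKM in treated scrambled-shRNA cells, against 0.923 and 1.02 FPKM and 2.37 and 1.88 FPKM in SOX4-shRNA cells. Its log2 fold change with the SOX4 shRNA was -2.25 ± 0.13 without TGF-β (limma adjusted p = 8.53e-05) and -2.62 ± 0.13 with it (limma adjusted p = 3.62e-05), and every SOX4-shRNA library lay below every scrambled-shRNA library. TGFBI, a known TGF-β target, was at least 1.24-fold higher with TGF-β in SOX4-shRNA cells under any reading. Epithelial and basal keratin and adhesion genes marked all groups: the 5 of 8 whose readings were not in doubt summed to between 5031 and 6761 FPKM in every library. With damaged exponents counted as 0, endothelial markers were at most 0.168 FPKM in any library. The values of PTPRC, CD3E, LYZ, LUM, PDGFRA and DCN below were read in the same way. A damaged value among these markers is not known. Of 4 leukocyte markers, PTPRC was at most 0.0167 FPKM and CD3E was read as 0 in every library. Readings of CD68 were in doubt, with up to 968 FPKM possible. LYZ was under 1 FPKM in 7 libraries and had lost its decimal mark in the other, where up to 100.4 FPKM is possible. Among fibroblast markers, no library had more than 0.105 FPKM of LUM or 0.103 FPKM of PDGFRA, while 5 of 8 passed the filter and summed to 149 to 165 FPKM in untreated and 212 to 238 FPKM in treated cells with the scrambled shRNA, and to 50.8 to 67.0 FPKM and 87.4 to 109 FPKM in SOX4-shRNA cells. DCN did not pass the filter either, although a reading of up to 110.7 FPKM is possible for it. Fewer cells of a type and less RNA per cell cannot be told apart in these bulk libraries.

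In untreated scrambled-shRNA cells the members spanned a wide range of levels. The LAMA3 short transcript was highest at 412 ± 32.3 FPKM (SD, n = 2), followed by COL17A1 at 197 ± 1.78, COL4A2 at 87.5 ± 2.31, COL7A1 at 79.6 ± 10.6, COL4A1 at 65.7 ± 2.35, LAMB1 at 48.5 ± 0.0654, LAMC1 at 38.9 ± 2.29 and NID1 at 1.40 ± 0.398. In this order COL4A2 and COL7A1 overlapped between libraries, and the other neighbours did not. LAMB3 has no place in the order because its values are in doubt, and the place of LAMA3 rests on its most likely readings.

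**Figure D1:**
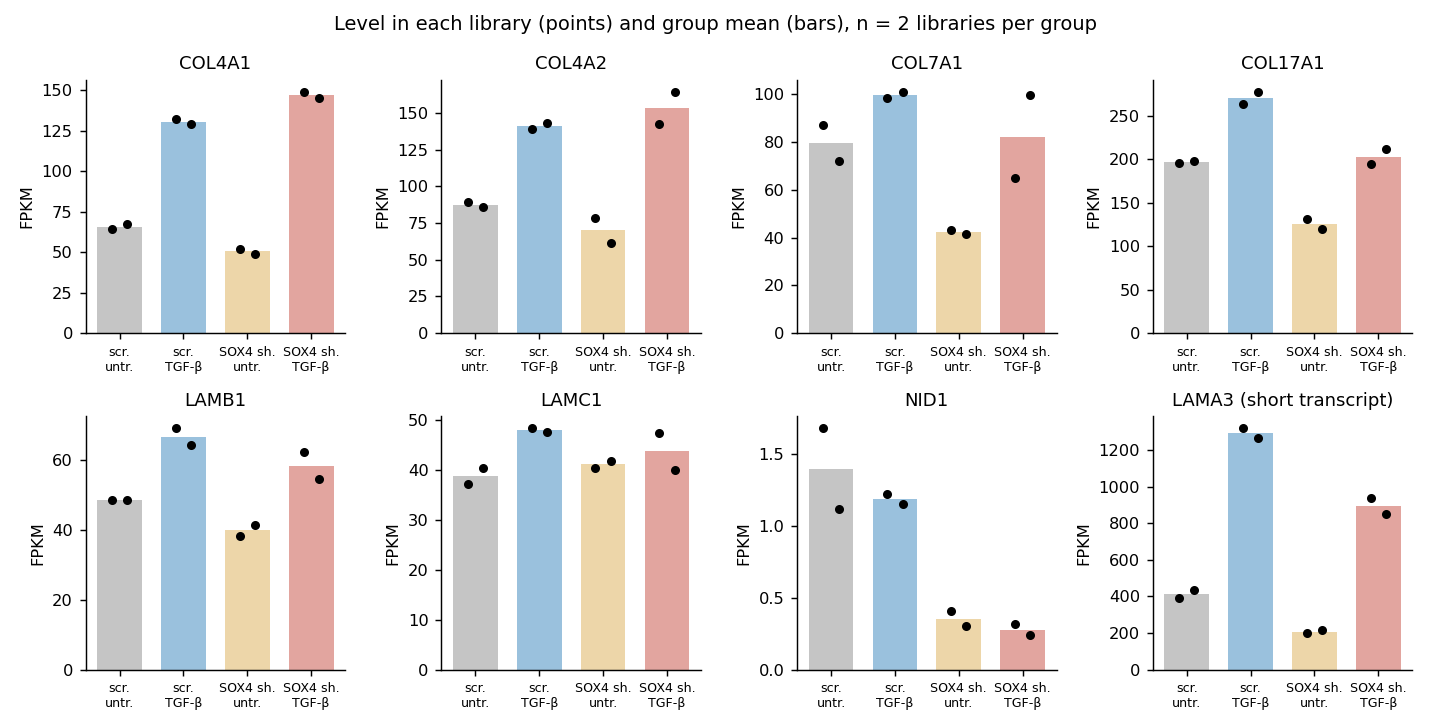
FPKM (y axis, linear from 0) of the 7 members with whole reads and of the LAMA3 short transcript in the 4 groups, with scr. for scrambled shRNA, SOX4 sh. for SOX4 shRNA and untr. for untreated. Points are the 2 libraries of a group and bars their mean. COL4A1, COL4A2 and, at its most likely readings, LAMA3 stand highest in TGF-β-treated cells of both kinds, whereas NID1 is split by the shRNA.

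Both type IV collagen genes rose with TGF-β in both kinds of cell. COL4A1 (chr13:110801310-110959504, minus strand, GRCh37) and COL4A2 (chr13:110958159-111165556, plus strand) lie on opposite strands. The COL4A2 span begins inside that of COL4A1, so COL4A2 also has an annotated start other than the RefSeq one. The RefSeq start sites used here lie 127 bases apart and face away from each other, so a single short segment is upstream of both of these starts. That segment, chr13:110959505-110959630 on GRCh37, is shown on the plus strand, reading towards COL4A2, because it is the upstream sequence shared by the 2 genes that moved together:

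COL4A1-COL4A2 segment: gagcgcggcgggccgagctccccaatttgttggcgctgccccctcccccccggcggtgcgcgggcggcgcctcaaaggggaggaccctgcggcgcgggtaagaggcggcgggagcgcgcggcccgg

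It has a GC content of 80.16%. None of the 3 motifs searched on both strands in the upstream windows occurs in it or in the 250 bases before either start: TGANTCA, the AP-1 motif, CAGAC, a SMAD motif, and ACAAAG, a SOX motif. Of 35116 RefSeq promoter windows (GRCh38.p14) of 250 bases, 6.57% hold the AP-1 letters, 38% the SMAD letters and 13.7% the SOX letters. A match or its absence describes the letters of the window only.

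COL4A1 was at 64.1 and 67.4 FPKM in scrambled-shRNA cells without TGF-β, and at 132 and 129 FPKM with TGF-β. In SOX4-shRNA cells it was at 52.1 and 48.8 FPKM untreated and at 149 and 145 FPKM with TGF-β. The treated and untreated libraries do not overlap in either kind of cell, and the SOX4-shRNA cells hold both the lowest and the highest values. COL4A1 rose by a log2 fold change of 0.98 ± 0.10 (limma adjusted p = 0.00189) in scrambled-shRNA cells, a ratio of mean FPKM of 1.99, and by 1.53 ± 0.10 (limma adjusted p = 0.000181) in SOX4-shRNA cells, a ratio of 2.92. These calls held under every alternative run, with adjusted p up to 0.0479 and 0.00919.

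COL4A2 was at 89.1 and 85.8 FPKM in untreated and 139 and 143 FPKM in TGF-β-treated scrambled-shRNA cells. In SOX4-shRNA cells it was at 78.6 and 61.6 FPKM without TGF-β and at 143 and 165 FPKM with it. Again each treated library lies above each untreated one. COL4A2 rose by 0.68 ± 0.14 (limma adjusted p = 0.0231) in scrambled-shRNA cells and by 1.13 ± 0.14 (limma adjusted p = 0.00244) in SOX4-shRNA cells, and the second of these calls held under every alternative run, with adjusted p up to 0.0268. The antisense genes COL4A2-AS1 and COL4A2-AS2 overlap its exons, and no source used here says whether counting used strand, so their reads cannot be separated from its own.

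The 2 collagen IV chains did not keep one proportion, an observation made after the values were seen and given without a test. The ratio of COL4A1 to COL4A2 FPKM was 0.719 and 0.785 in untreated and 0.952 and 0.901 in treated cells with the scrambled shRNA, and 0.663 and 0.791 against 1.05 and 0.882 in SOX4-shRNA cells. The 4 treated libraries lie above the 4 untreated ones, and the shRNA groups overlap within each treatment.

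**Figure D2:**
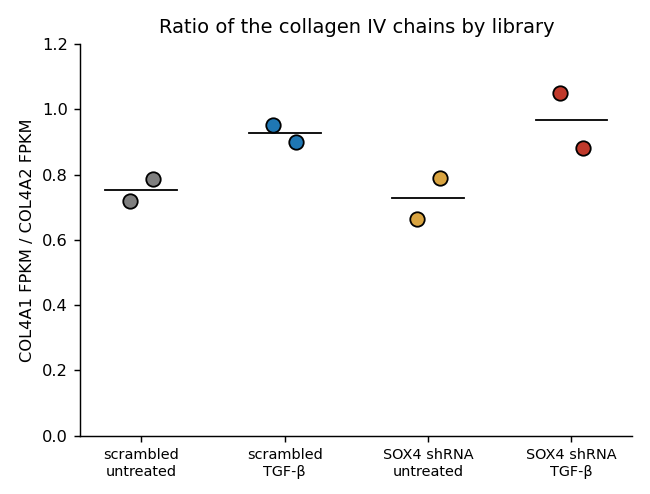
Ratio of COL4A1 to COL4A2 FPKM (y axis, linear from 0) in each of the 8 libraries by group, with lines at the group means. Untreated libraries lie between 0.663 and 0.791 and TGF-β-treated libraries between 0.882 and 1.05.

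LAMA3 encodes the α3 chain of laminin-332. It lies on chr18:21269417-21536186 (GRCh37, plus strand), and its short transcript begins inside the gene, at an internal promoter. The 250 bases before that start (chr18:21452734-21452983, GRCh37, plus strand; RefSeq window, located by exact match) are shown because this transcript had the largest TGF-β fold change of the members tested, with matches to the searched motifs in capitals:

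LAMA3 short transcript: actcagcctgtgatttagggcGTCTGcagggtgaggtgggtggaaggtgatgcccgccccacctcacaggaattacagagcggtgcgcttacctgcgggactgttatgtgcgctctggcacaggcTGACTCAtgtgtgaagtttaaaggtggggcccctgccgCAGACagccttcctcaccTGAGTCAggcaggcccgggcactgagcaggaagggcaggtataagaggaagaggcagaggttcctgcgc

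The window holds 2 AP-1 matches (TGACTCA and its reverse complement TGAGTCA) and 2 SMAD matches (CAGAC and its reverse complement GTCTG), and no SOX match. The windows of COL7A1 and LAMC1 each hold 1 SMAD match too, and LAMC1 did not pass the test with TGF-β in either kind of cell.

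The LAMA3 short transcript was at 389 and 435 FPKM in scrambled-shRNA cells without TGF-β, and at 1317 and 1264 FPKM with TGF-β. The treated values had kept their decimal marks, and no reading of the untreated values is higher than those given, so the level with TGF-β was at least 2.91-fold higher. In SOX4-shRNA cells the most likely readings were 199.2 and 218 FPKM untreated and 937 and 852 FPKM with TGF-β. Under these readings the transcript rose by 1.65 ± 0.10 (limma adjusted p = 0.00111, wider fit) in scrambled-shRNA cells and by 2.10 ± 0.10 (limma adjusted p = 0.000519) in SOX4-shRNA cells. The readings hold a posterior probability of 0.952. The next most likely set puts the treated SOX4-shRNA cells at 93.7 and 85.2 FPKM, which turns their change into -1.21 (limma adjusted p = 0.00393), so the direction in SOX4-shRNA cells rests on the restored marks.

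The other LAMA3 transcripts were lower at their most likely or intact readings. The long transcript NM_198129 had most likely readings of 10.2 to 18.2 FPKM over the 8 libraries, with a posterior of only 0.617, and was not tested. NM_001127717 was at most 0.0397 FPKM in all libraries but the first TGF-β-treated SOX4-shRNA one, where its exponent was damaged. NM_001127718 was listed at 2.42 FPKM in the first TGF-β-treated scrambled-shRNA library. It was at most 0.497 FPKM in the other scrambled-shRNA libraries and in the second untreated SOX4-shRNA one. In the remaining SOX4-shRNA libraries its exponents were damaged, so its values there are not known.

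LAMB3 encodes the β3 chain of laminin-332 and lies on chr1:209788215-209825770 (GRCh37, minus strand). Of its 3 RefSeq start windows, the one at chr1:209824720-209824969 (minus strand) is shown for comparison with LAMA3, and it alone of the 3 holds a searched motif, 1 AP-1 match in capitals:

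LAMB3 window: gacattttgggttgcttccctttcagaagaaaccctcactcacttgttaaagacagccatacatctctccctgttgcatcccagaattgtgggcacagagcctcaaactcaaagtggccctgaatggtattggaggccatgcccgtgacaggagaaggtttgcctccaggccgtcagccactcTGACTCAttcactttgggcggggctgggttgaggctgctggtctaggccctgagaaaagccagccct

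Only 1 value of the LAMB3 transcript NM_000228 kept its decimal mark, 120.81 FPKM in the second untreated scrambled-shRNA library. Its partner was at 132 FPKM under the most likely reading. With TGF-β the most likely readings of the scrambled-shRNA cells were 178 and 219 FPKM. Those of the SOX4-shRNA cells were 25.7 and 61.0 FPKM untreated and 136 and 142 FPKM with TGF-β. Every value without its mark could also differ by a factor of 10 or more, and the most likely set held a posterior of 0.604, which is too low to state a direction. The transcripts NM_001017402 and NM_001127641 were in doubt too, at posteriors of 0.525 and 0.358.

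**Figure D3:**
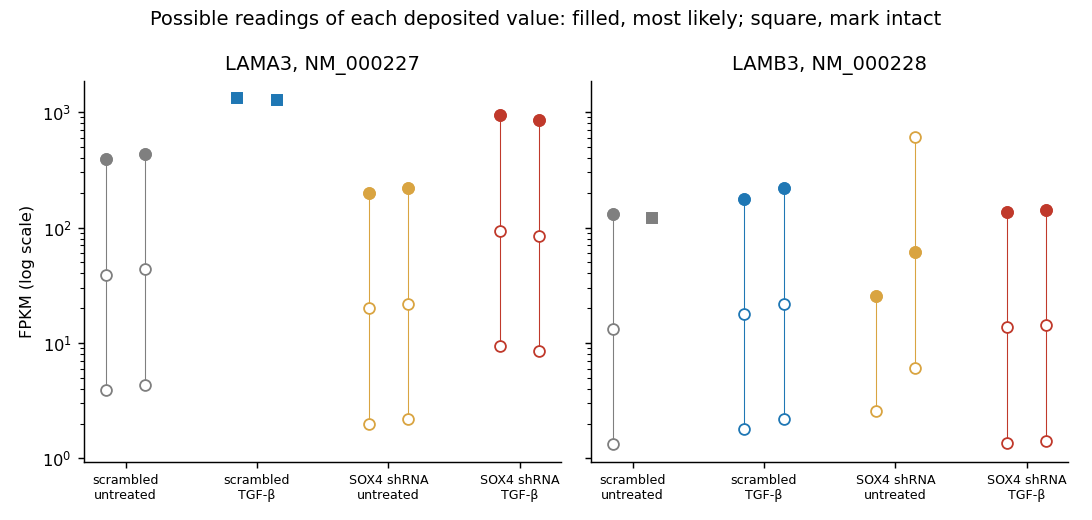
Possible readings in FPKM (y axis, log scale) of LAMA3 NM_000227 and LAMB3 NM_000228 in each library by group. Filled symbols are the most likely readings, open circles the others, lines join the readings of 1 library, and squares are values whose decimal mark was intact. In LAMA3 the treated scrambled-shRNA libraries, at 1317 and 1264 FPKM, lie above every reading of the untreated ones.

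LAMB1 and LAMC1 encode the β1 and γ1 chains that laminins such as laminin-111 and laminin-511 share. LAMB1 (chr7:107564244-107643658, minus strand) was at 48.5 and 48.4 FPKM in untreated and 68.9 and 64.3 FPKM in TGF-β-treated scrambled-shRNA cells, and at 38.3 and 41.2 FPKM against 62.1 and 54.4 FPKM in SOX4-shRNA cells. Treated libraries lie above untreated ones in both kinds of cell. LAMB1 rose by 0.45 ± 0.11 (limma adjusted p = 0.0469) and by 0.54 ± 0.11 (limma adjusted p = 0.0235). DLD and an unnamed gene overlap LAMB1 exons on the opposite strand, so their reads cannot be separated from its own.

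LAMC1 (chr1:182992555-183114727, plus strand) did not pass the test in either kind of cell. It was at 37.2 and 40.5 FPKM in untreated and 48.3 and 47.6 FPKM in TGF-β-treated scrambled-shRNA cells, a log2 difference of 0.30 ± 0.12 (limma adjusted p = 0.159). In SOX4-shRNA cells it was at 40.4 and 41.8 FPKM without and 47.4 and 40.1 FPKM with TGF-β, where the groups overlap and the difference was 0.08 ± 0.12 (limma adjusted p = 0.722; 95% interval -0.18 to 0.35). The ratio of LAMB1 to LAMC1 FPKM was 1.3 and 1.2 in untreated scrambled-shRNA cells, 1.43 and 1.35 with TGF-β, 0.947 and 0.986 in untreated SOX4-shRNA cells and 1.31 and 1.36 with TGF-β. It was lowest in the untreated SOX4-shRNA libraries.

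NID1 encodes nidogen-1, which bridges the laminin and collagen IV networks, and lies on chr1:236139130-236228409 (minus strand). It was the lowest member, at 1.68 and 1.12 FPKM in untreated and 1.22 and 1.15 FPKM in TGF-β-treated scrambled-shRNA cells, values that rest on 160, 80, 103 and 90 reads. In SOX4-shRNA cells it was at 0.405 and 0.306 FPKM untreated and 0.315 and 0.244 FPKM treated, on 32, 27, 25 and 21 reads. All 4 SOX4-shRNA libraries lie below all 4 scrambled-shRNA libraries, and TGF-β groups overlap within each kind of cell. NID1 fell with the SOX4 shRNA by 0.81 ± 0.15 on the log2 scale without TGF-β (limma adjusted p = 0.0227) and by 0.77 ± 0.15 with it (limma adjusted p = 0.0304), and the ratios of mean FPKM were 3.92 and 4.25. Its differences with TGF-β were -0.12 ± 0.15 and -0.08 ± 0.15 (limma adjusted p = 0.663 and 0.794).

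COL17A1 encodes the transmembrane collagen of the hemidesmosome and lies on chr10:105791044-105845638 (minus strand). The 250 bases before its start (chr10:105845639-105845888, GRCh37, minus strand) are shown because they alone among the members hold the SOX letters, in capitals, here 2 matches of CTTTGT, the reverse complement of ACAAAG:

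COL17A1 promoter: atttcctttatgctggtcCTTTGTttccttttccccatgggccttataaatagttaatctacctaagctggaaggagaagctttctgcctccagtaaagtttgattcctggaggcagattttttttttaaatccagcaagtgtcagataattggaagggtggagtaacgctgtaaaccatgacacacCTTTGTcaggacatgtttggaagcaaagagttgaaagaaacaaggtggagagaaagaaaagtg

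COL17A1 was at 196 and 198 FPKM in untreated and 264 and 278 FPKM in TGF-β-treated scrambled-shRNA cells. In SOX4-shRNA cells it was at 132 and 120.2 FPKM untreated and 195 and 212 FPKM with TGF-β. The 4 groups order themselves with little spread, and the treated SOX4-shRNA libraries lie on both sides of the untreated scrambled-shRNA ones. COL17A1 rose with TGF-β by 0.46 ± 0.10 (limma adjusted p = 0.031) in scrambled-shRNA cells and by 0.69 ± 0.10 (limma adjusted p = 0.00533) in SOX4-shRNA cells. It fell with the SOX4 shRNA by 0.64 ± 0.10 on the log2 scale when no TGF-β was given (limma adjusted p = 0.0113). Under TGF-β the difference of -0.41 ± 0.10 did not pass (limma adjusted p = 0.0666).

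COL7A1 encodes type VII collagen of the anchoring fibrils and lies on chr3:48601506-48632762 (minus strand). It was at 87.1 and 72.1 FPKM in untreated and 98.4 and 101 FPKM in TGF-β-treated scrambled-shRNA cells, and at 43.2 and 41.3 FPKM in untreated SOX4-shRNA cells. The treated SOX4-shRNA libraries were at 64.9 and 99.7 FPKM, a gap that spans most of the distance from the untreated SOX4-shRNA to the treated scrambled-shRNA values. COL7A1 rose with TGF-β in SOX4-shRNA cells by 0.91 ± 0.19 (limma adjusted p = 0.025) and fell with the SOX4 shRNA by 0.89 ± 0.19 on the log2 scale in untreated cells (limma adjusted p = 0.0376). Its differences with TGF-β in scrambled-shRNA cells (0.33 ± 0.19, limma adjusted p = 0.333) and with the SOX4 shRNA under TGF-β (-0.31 ± 0.19, limma adjusted p = 0.485) did not pass.

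**Figure D4:**
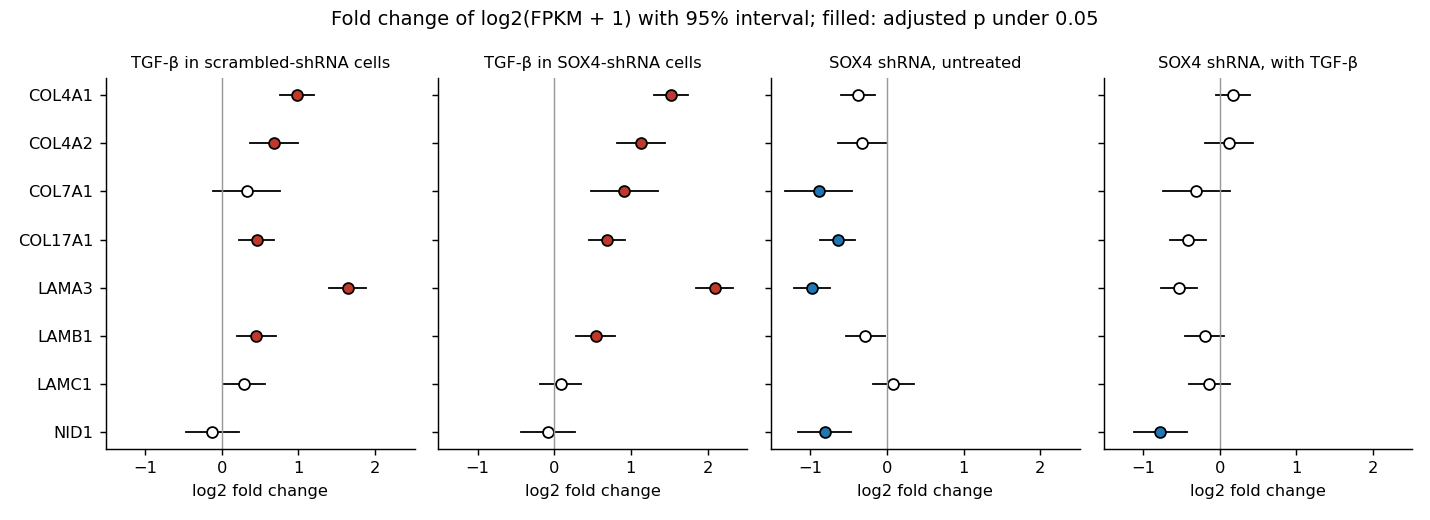
Log2 fold change of log2(FPKM + 1) (x axis) with its 95% interval for 8 members (rows) in the 4 comparisons (panels). Filled red symbols rose, filled blue symbols fell and open symbols did not pass an adjusted p of 0.05. With TGF-β the values run from -0.12 for NID1 to 2.10 for LAMA3, and with the SOX4 shRNA in untreated cells from -0.98 for LAMA3 to 0.08 for LAMC1.

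Counted over the members, TGF-β raised COL4A1, COL4A2, COL17A1 and LAMB1 in scrambled-shRNA cells, 4 of the 7 with whole reads, where 5.35% of all 5061 genes rose. The median log2 fold change was 0.45 over these 7 and -0.03 over all genes. LAMA3 rose in the wider fit, where 1.47% of 12012 genes rose. The COL4A1 and LAMA3 calls held when any library was left out. Leaving out any 1 of the 4 scrambled-shRNA libraries ended the calls of COL4A2 (log2 fold change 0.66 to 0.71, adjusted p up to 0.181), COL17A1 (0.42 to 0.49, up to 0.265) and LAMB1 (0.40 to 0.50, up to 0.315). The fibroblast markers COL1A1 and COL1A2, 2 of 5 tested, rose here too, by 0.74 ± 0.18 and 0.60 ± 0.11, and their part in the member results was not tested.

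In SOX4-shRNA cells TGF-β raised COL4A1, COL4A2, COL7A1, COL17A1 and LAMB1, 5 of 7, where 6.5% of all genes rose. Under its most likely readings LAMA3 rose too in the wider fit, where 2.41% did. The medians were 0.69 over the 7 members and -0.04 over all genes. COL4A1, COL4A2 and COL17A1 kept their calls when any library was left out, although COL17A1 lost its call when the SOX4-shRNA groups were fitted alone (limma adjusted p = 0.077). COL7A1 lost its call (log2 fold change 0.61 to 1.22, adjusted p up to 0.0847) without either treated scrambled-shRNA library, either untreated SOX4-shRNA library or the second treated one, and LAMB1 (0.44 to 0.63, up to 0.0801) without any 1 library except the second treated SOX4-shRNA one. COL1A1, COL1A2 and COL3A1 rose here too, by 1.37 ± 0.18, 0.69 ± 0.11 and 0.53 ± 0.13, 3 of 5 fibroblast markers, and their part in the member results was not tested.

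**Figure D5:**
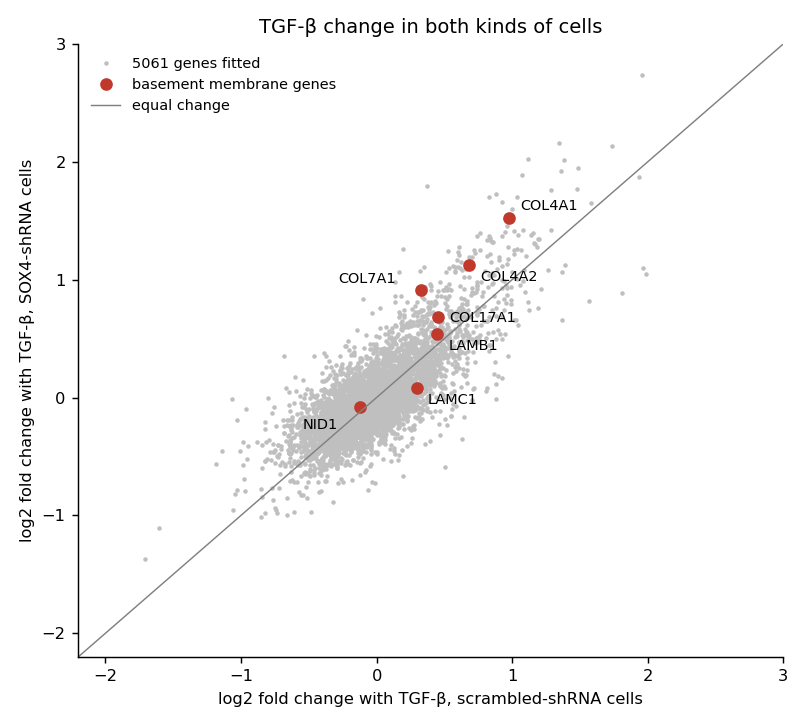
Log2 fold change with TGF-β in scrambled-shRNA cells (x axis) and in SOX4-shRNA cells (y axis) of the 5061 genes with whole reads (grey) and the 7 members among them (red), with a line at equal change and 3 genes outside the axes. COL4A1 lies farthest out among these members, at 0.98 and 1.53, and NID1 lies near 0 on both axes.

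Whether TGF-β acted differently in the 2 kinds of cell was tested as an interaction, and no member was called. The value of COL7A1 was 0.59 ± 0.27 (limma adjusted p = 0.989), but 0.28 without the second and 0.89 without the first treated SOX4-shRNA library, and that of COL4A1 was 0.55 ± 0.14 (limma adjusted p = 0.989; unadjusted p = 0.00398). Limma called 0 of the 5061 genes (0% of them), and 145 genes, of which 2 were members, had an unadjusted p under 0.05. In the wider fit 8 of 12012 genes (0.0666%) were called and LAMA3 was not among them (0.45 ± 0.14, limma adjusted p = 0.999). The LAMA3 readings were weighed by effect size, the interaction included, and the next most likely set reverses this value. For LAMA3 the test therefore cannot decide the question. A different response in the 2 kinds of cell is therefore not shown, and the 95% interval for COL4A1 runs from 0.23 to 0.86.

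In untreated cells, the SOX4 shRNA lowered COL7A1, COL17A1 and NID1, 3 of the 7 members with whole reads, where 3.56% of all genes fell and the median log2 fold change of all genes was -0.0035. The median of the 7 members was -0.38. The LAMA3 short transcript fell by 0.98 ± 0.10 on the log2 scale in the wider fit (limma adjusted p = 0.0118), where 0.991% of genes fell. None of its untreated values kept a decimal mark, and its readings were weighed by replicate spread and effect size. The direction, the size and the standard error of this fall therefore all rest on the restored marks. COL4A1 (-0.38 ± 0.10, limma adjusted p = 0.0714), COL4A2 (-0.33 ± 0.14, 0.236), LAMB1 (-0.28 ± 0.11, 0.214) and LAMC1 (0.08 ± 0.12, 0.755) did not pass. These calls were lost when 1 library was left out, some of them outside the comparison, while the directions stayed. COL7A1 lost its call without any 1 of 6 libraries, all but the treated SOX4-shRNA ones (log2 fold change -1.03 to -0.76, adjusted p up to 0.249). COL17A1 lost it without either untreated scrambled-shRNA library or the second untreated SOX4-shRNA one (-0.71 to -0.58, up to 0.0958). NID1 lost it without the first untreated scrambled-shRNA library, either treated scrambled-shRNA one or either untreated SOX4-shRNA one (-0.98 to -0.64, up to 0.152), and LAMA3 without the second untreated or either treated scrambled-shRNA library or the first untreated SOX4-shRNA one (-1.06 to -0.90, up to 0.0737, and 0.125 with the untreated groups fitted alone). Fibroblast markers moved in the same comparison: COL1A1 fell by 2.57 ± 0.18 on the log2 scale, COL1A2 by 1.62 ± 0.11, COL3A1 by 1.31 ± 0.13 and THY1 by 0.72 ± 0.16, which is 4 of the 5 tested, and their part in the member results was not tested.

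With TGF-β present, the SOX4 shRNA lowered NID1 alone among the 7 members, where 2.9% of all genes fell. The median of the members was -0.19, and that of all genes was 0.01. COL4A1 stood at 0.17 ± 0.10 (limma adjusted p = 0.441; 95% interval -0.05 to 0.39) and COL4A2 at 0.12 ± 0.14 (limma adjusted p = 0.743; 95% interval -0.19 to 0.43). LAMA3 was at -0.53 ± 0.10 under its most likely readings (limma adjusted p = 0.0806, wider fit, where 0.841% of genes fell). The NID1 call was lost without any 1 of the 4 treated libraries (log2 fold change -0.81 to -0.73, adjusted p up to 0.216). COL1A1, COL1A2 and COL3A1, 3 of 5 fibroblast markers, fell here too, by 1.95 ± 0.18, 1.53 ± 0.11 and 0.69 ± 0.13 on the log2 scale, and their part in the NID1 result was not tested.

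Other genes of the same matrix were followed as a list of 26. Of these, 8 had whole reads, 1 was in the wider fit and is not reported here, 6 had readings in doubt and 11 did not pass the filter of 1 FPKM in at least 2 libraries. The 8 are counted here, and only those that rose or fell are named. SPARC, a collagen-binding matrix protein, and NTN4, the laminin-related netrin-4, rose with TGF-β in both kinds of cell. SPARC was at 120.1 and 118 FPKM in untreated and 180.0 and 184 FPKM in treated scrambled-shRNA cells, a log2 fold change of 0.61 ± 0.10 (limma adjusted p = 0.0108), and rose by 0.47 ± 0.10 (limma adjusted p = 0.0227) in SOX4-shRNA cells. NTN4 rose by 0.61 ± 0.12 (limma adjusted p = 0.0247) and by 0.74 ± 0.12 (limma adjusted p = 0.00986). That is 2 of 8 in each kind of cell, where 5.35% and 6.5% of all genes rose. The medians of the 8 were 0.09 and 0.17.

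NID2, the second nidogen, resembled NID1 in its values. It was at 3.14 and 2.81 FPKM in untreated and 2.92 and 3.29 FPKM in treated scrambled-shRNA cells, against 1.31 and 0.918 FPKM and 1.05 and 1.12 FPKM in SOX4-shRNA cells. It fell with the SOX4 shRNA by 0.92 ± 0.14 on the log2 scale without TGF-β (limma adjusted p = 0.0104) and by 0.98 ± 0.14 with it (limma adjusted p = 0.00779). PXDN, peroxidasin, the enzyme that cross-links collagen IV, fell by 0.57 ± 0.12 (limma adjusted p = 0.0323) and by 0.62 ± 0.12 (limma adjusted p = 0.0255). NTN4 fell in untreated cells by 0.61 ± 0.12 (limma adjusted p = 0.0328), which makes 3 of 8 without TGF-β and 2 of 8 with it. Of all genes, 3.56% and 2.9% fell in these comparisons. Exons of NID2 and SPARC overlap other genes on the opposite strand.

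Receptors and hemidesmosome genes, such as the integrin chains that bind laminin, could hardly be read: of 15, 9 had readings in doubt. None of the 6 tested, 5 of them in the wider fit, passed in limma in any of the 4 comparisons. In these, 2, 4, 3 and 2 of them had an unadjusted p under 0.05 (TGF-β in scrambled-shRNA and SOX4-shRNA cells, SOX4 shRNA without and with TGF-β). Of the 5061 genes with whole reads, 24.8%, 24.4%, 19.7% and 17.1% did. These shares do not cover the wider fit, where 5 of the 6 were tested. Of 18 genes for collagen folding and processing, 8 had whole reads and 3 were in the wider fit. With TGF-β in SOX4-shRNA cells 3 of these 11 rose: PLOD1, a lysyl hydroxylase, by 0.57 ± 0.15 (limma adjusted p = 0.0492), LOXL2, a lysyl oxidase that cross-links collagen, by 0.70 ± 0.16 (limma adjusted p = 0.033), and BMP1, a procollagen proteinase, by 0.89 ± 0.15 in the wider fit (limma adjusted p = 0.0378). In that comparison 6.5% of all genes with whole reads rose, and 2.41% of genes in the wider fit. None of the 11 passed in limma in the other 3 comparisons, where 3 (TGF-β in scrambled-shRNA cells), 3 (SOX4 shRNA without TGF-β) and 2 (with it) had an unadjusted p under 0.05. Of the 5061 genes with whole reads, 24.8%, 19.7% and 17.1% did so in these comparisons. Again the shares leave out the wider fit, where 3 of the 11 were tested.

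Of 10 proteases and inhibitors that act on basement membrane, 7 had whole reads. With TGF-β 4 of 7 rose in scrambled-shRNA cells and 5 of 7 in SOX4-shRNA cells, where 5.35% and 6.5% of all genes rose. MMP9, a gelatinase that degrades collagen IV, was at 4.47 and 4.19 FPKM in untreated and 20.9 and 21.5 FPKM in treated scrambled-shRNA cells, and at 3.61 and 2.05 FPKM against 26.0 and 38.9 FPKM in SOX4-shRNA cells. It rose by 2.06 ± 0.23 (limma adjusted p = 0.00306) and by 3.13 ± 0.23 (limma adjusted p = 0.000336). MMP10 (stromelysin-2) rose by 1.98 ± 0.16 and 1.05 ± 0.16 on this scale, where low values are compressed, and its ratios of mean FPKM were 8.6 and 8.38. MMP14, a membrane-bound collagenase, rose by 0.95 ± 0.12 and 1.40 ± 0.12, and the inhibitor TIMP3 by 0.70 ± 0.10 and 1.11 ± 0.10, with limma adjusted p of at most 0.0078 for each. An antisense gene overlaps MMP9.

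The same list moved with the SOX4 shRNA in both directions. In untreated cells HTRA1, a secreted serine protease, fell by 1.45 ± 0.10 on the log2 scale (limma adjusted p = 0.000179), from 83.4 and 89.6 FPKM to 31.2 and 30.6 FPKM. MMP14 fell by 0.66 ± 0.12 (limma adjusted p = 0.0175) and TIMP1 by 0.86 ± 0.17 (limma adjusted p = 0.0321), while TIMP2 rose by 0.63 ± 0.10 (limma adjusted p = 0.0145), where 3.56% of all genes fell and 1.26% rose. With TGF-β, HTRA1 fell by 1.25 ± 0.10 (limma adjusted p = 0.000525) and MMP10 by 1.41 ± 0.16 (limma adjusted p = 0.00302), 2 of 7, where 2.9% of all genes fell.

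The genes whose pattern was most like that of COL4A1 were sought among 256 others with whole reads and an SD of at least 0.5 in log2(FPKM + 1), by Pearson correlation over the 8 libraries, which share 4 groups and therefore hold few independent levels. The 5 closest were ZBED2 (r = 0.993), a zinc finger gene, TIMP3 (0.993), HTR1D (0.992), a serotonin receptor gene, UCA1 (0.991), a long noncoding RNA, and SNAI2 (0.989), which encodes the transcriptional repressor Slug. SNAI2 was at 90.3 and 90.3 FPKM in untreated and 172 and 163 FPKM in treated scrambled-shRNA cells, and at 77.2 and 83.1 FPKM against 175 and 168 FPKM in SOX4-shRNA cells. COL4A2 was 15th in this order (0.979). COL7A1 stood at 0.727 (rank 114), and, below the SD required for a rank, LAMB1 stood at 0.906, COL17A1 at 0.787, LAMC1 at 0.647 and NID1 at -0.04.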

How the data were processed

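RNA-seq of 8 HMLE libraries in 4 groups was used. Per the labels' protocols, libraries were made from total RNA with a stranded ribosomal-depletion kit and read as single ends, but the molecule label reads polyA RNA, which leaves the RNA fraction unsure. The submitters' processing notes name the genome build hg19 and, as tools, Cuffdiff, Cufflinks (2.2.1) and TopHat2 (2.0.9). The deposited table was read as FPKM, from these tools and its values, for 48175 transcripts. How the authors scaled libraries against each other, and whether strand was used, is not given in the sources used here. Symbols matched by RefSeq identifier for 97.8% of the transcripts. Besides lost decimal marks, 13.9% of values had damaged exponents and were set to 0.

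Marks were restored for genes with 1 transcript by a search for the transcript length at which at least 6 of 8 values are whole reads. Of 5425 genes searched 5127 (94.5%) did so, against 0 of 542 with randomised digits. Readings were then weighed by replicate spread, effect size and level (multivariate t, 3 degrees of freedom), and whole-read genes with a posterior of at least 0.95 and 1 FPKM in at least 2 libraries entered limma 3.58.1 in R 4.3.3, in 1 fit of the 4 groups with an intensity trend and 4 residual degrees of freedom. The wider fit took the highest transcript of each gene, also of genes whose readings were in doubt, at their most likely readings, so its spread and its share of calls include wrongly restored values. No call was made for a gene with a posterior under 0.95. Both steps were tested on simulated data.

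The members and the gene lists were chosen with earlier results of these data known. Named genes were all members, SOX4 and TGFBI as checks (readings of TGFBI were in doubt, so only a bound is given), at most 4 called genes per list and comparison by p, and the 5 genes most correlated with COL4A1. Gene models are GENCODE 44 on GRCh37, and promoters are RefSeq windows. Protein sequences were not analysed here, and some listed genes are not reported here. Alternatives were another pseudocount, 2 filters, all kept genes, median scaling, no trend, the compared groups alone, a replicate block, other decimal readings and leaving out each library.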

Additional observations from a re-analysis of the deposited data

How the results depend on the processing

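The number of the 7 members called depended on the settings. With TGF-β in scrambled-shRNA cells 4 rose, against 1 with no filter on low values (9530 genes tested), 1 in the fit of all kept genes, 1 with a replicate block and 1 to 4 with 1 library left out. With TGF-β in SOX4-shRNA cells 5 rose, against 3 in the fit of all kept genes, 3 with the replicate block, 2 with the compared groups alone and 3 to 4 with 1 library left out. With the SOX4 shRNA in untreated cells 3 fell, against 1 with no filter, 1 in the fit of all kept genes, 1 with the compared groups alone and 0 to 3 with 1 library left out. With the SOX4 shRNA under TGF-β 1 fell (NID1), against 0 with no filter, 0 at a minimum of 5 FPKM, which drops NID1, 0 in the fit of all kept genes and 0 to 1 with 1 library left out. Fewer samples or more genes to adjust over enter several of these fits, and beyond that the cause was not tested. Another pseudocount, median scaling and no intensity trend kept each of these counts within 1.5 times.

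Directions turned for values that were not called: NID1 with TGF-β in scrambled-shRNA cells (-0.29 to 0.048 with 1 library left out), LAMC1 with TGF-β in SOX4-shRNA cells (-0.036 to 0.20), and the interactions of LAMB1 (-0.0045 to 0.18) and NID1 (-0.13 to 0.21, and -0.070 with a pseudocount of 0.1). The next most likely reading of LAMA3 turned its TGF-β change in SOX4-shRNA cells to -1.21 and its interaction to -2.86, and called its difference with the SOX4 shRNA under TGF-β (limma adjusted p = 0.000106). LAMC1 was called with TGF-β in scrambled-shRNA cells with the compared groups alone (limma adjusted p = 0.0474).

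Replicate numbers are shared between groups without a stated link. The difference between the replicate libraries of a group was correlated across genes with the same difference in another group. Between treatments this gave -0.247 in scrambled-shRNA and -0.671 in SOX4-shRNA cells. Between shRNAs it gave 0.57 in untreated and 0.383 in TGF-β-treated cells. The main fit did not pair libraries by number, and whether a shared replicate effect lies behind these values was not tested. The main fit gave each gene 1 spread for all 4 groups, although the groups differed in replicate noise. Against counting noise, the chi-square per gene between replicates was 10.5 in untreated and 4.59 in treated scrambled-shRNA cells. In SOX4-shRNA cells it was 23.6 and 22.6. Standard errors may therefore be too small for SOX4-shRNA cells and too large for scrambled-shRNA cells. Low depth limits NID1 most, at 21 to 160 reads.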
